A study of Sus scrofa with 21 samples.

Results

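Granulocyte and activated myeloid genes were examined in RNA sequencing of the distal small intestine of 21 piglets. The set names 10 genes, of which 7 were found by their Ensembl pig gene name among the 18661 genes of the files: S100A8, S100A12, CSF3R, TREM1, GPR84, ACOD1 and CXCL8. The symbols S100A9, IL1B and IL1RN matched no identifier in the table of gene names, and these 3 genes were not analysed here. The genes were chosen with earlier results on these libraries known, so their levels and their spread over piglets are given as a description and not tested.

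The animals were Danish Landrace/Yorkshire piglets, euthanised at 24 to 25 days of age. The 10 control piglets drank a commercial milk replacer from Arla Foods. The 11 starch piglets (starch 1 to 11) drank that product with wheat mixed in. Sex, litter and batch are not given in the labels, and total expected counts per piglet lay between 6719264 and 8610458. Levels are in CPM, counts scaled to a common library total.

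Neutrophils are short-lived granulocytes that leave the blood for sites of infection or damage. Their supply depends on granulocyte colony-stimulating factor, they are drawn into tissue by chemokines such as CXCL8, and they carry large amounts of the calcium-binding proteins S100A8, S100A9 and S100A12. Monocytes and macrophages that meet microbial products share part of this programme and switch on genes such as ACOD1, GPR84 and the interleukin-1 family. In healthy small intestine resident macrophages and lymphocytes are the main immune cells, and neutrophils are sparse.

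S100A8, S100A12 and TREM1 were at 0 or near it in most piglets, GPR84 and ACOD1 were low in most, and CSF3R and CXCL8 were detected in all 21. Control 5, control 8 and starch 3 were the 3 highest piglets for all 7 genes, with starch 3 highest for 5 genes and control 8 for S100A8 and S100A12. Among the 13127 genes that passed the filter on low counts, control 5, control 8 and starch 3 were the 3 highest piglets for 686 (5.23%). They held between 52.5% (CXCL8) and 98.7% (S100A12) of all counts of a gene. Both diets are represented among them, and the diets overlapped for every gene. Their totals of 8055374, 8034711 and 8154681 expected counts lay within the range of the other piglets. The same 3 libraries had the lowest summed levels of enterocyte markers, between 2128.3 and 2282.6 CPM against at least 6524.7 CPM elsewhere, and results that rest on them are given with and without them. In whole tissue fewer cells of a type and less RNA per cell cannot be told apart. Of the granulocyte markers in the set, S100A8, S100A12 and TREM1 were at or near 0 outside these 3 piglets, while CSF3R was not.

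**Figure D1:**
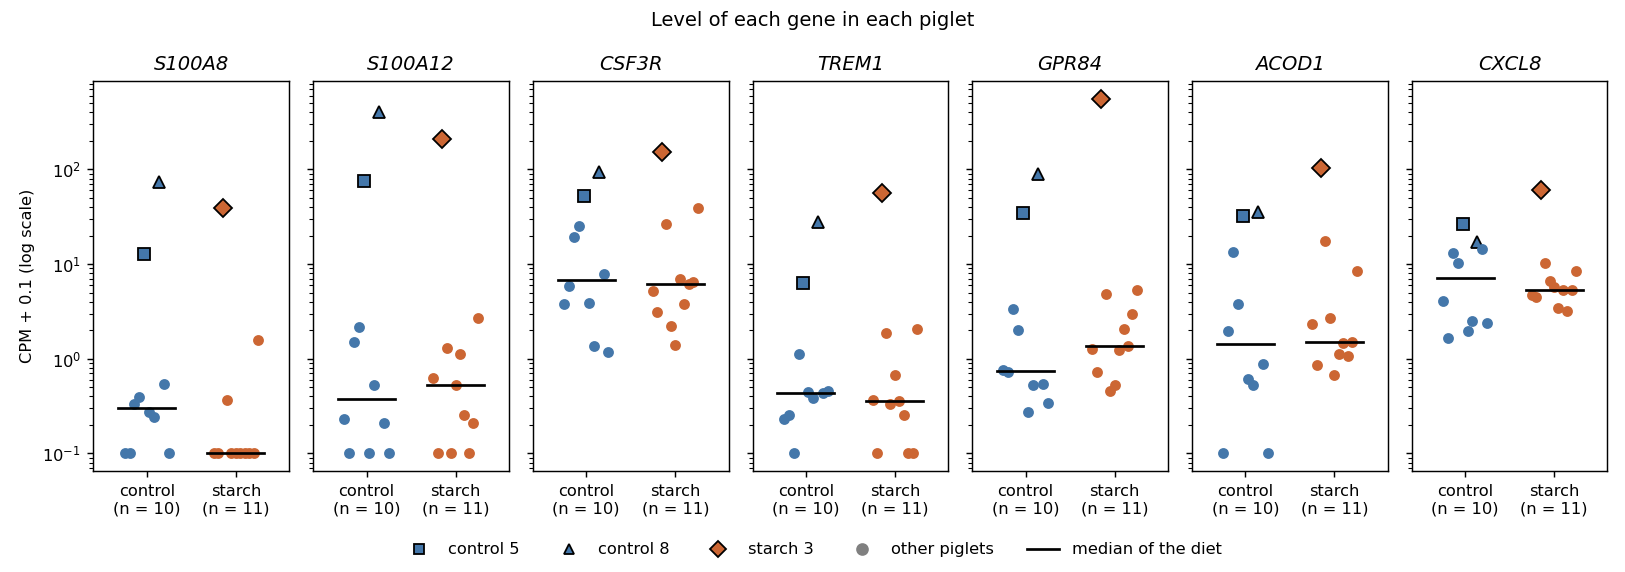
Level of each of the 7 genes in each piglet, in CPM plus 0.1 on a log scale, by diet. Each point is a piglet, the line is the median of the diet, and control 5 (square), control 8 (triangle) and starch 3 (diamond) lie above all other piglets in each panel.

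The calprotectin-type proteins gave the widest contrast. S100A8, one chain of the antimicrobial complex calprotectin, read 12.8 CPM in control 5, 74.4 CPM in control 8 and 38.9 CPM in starch 3. In the other 18 piglets it was at most 1.46 CPM, in starch 11. It had no count in 11 piglets, 3 of them control and 8 starch. A count of 0 allows up to 3 counts, or 0.319 to 0.468 CPM in these libraries, and this limit covers counting error only. The median was 0.201 CPM over the control and 0 CPM over the starch piglets, and the diets overlapped.

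S100A12, a related chemoattractant and ligand of the receptor AGER, read 74.7 CPM in control 5, 409.2 CPM in control 8 and 211.2 CPM in starch 3. The next piglet, starch 11, had 2.59 CPM, so that the lowest of the 3 exceeded it 28.8-fold. No count was found in 6 piglets, 3 of each diet. Control piglets had a median of 0.279 CPM and starch piglets of 0.433 CPM. The files list 2 transcripts of S100A12 of 279 coding bases each, and each holds 50% of the expected count, so only their sum is used.

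The proportion of both genes was similar in the 3 piglets where they were high. S100A12 had 5.81 counts for each count of S100A8 in control 5 (exact 95% interval 4.82 to 7.06), 5.50 in control 8 (5.04 to 6.02) and 5.42 in starch 3 (4.82 to 6.11). The intervals overlap, while S100A8 itself stood at 12.8 CPM in control 5 and 74.4 CPM in control 8. Their coding lengths, 270 and 279 bases, are close, so counts can be set side by side. Elsewhere counts were few: starch 11 had 16 counts of S100A12 and 9 of S100A8, and control 9 had 1 and 4.

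The receptors of the set were CSF3R, TREM1 and GPR84. CSF3R, the receptor for granulocyte colony-stimulating factor, was the most evenly detected of the receptors, with at least 9 counts in every piglet. It read 52.9 CPM in control 5, 94.4 CPM in control 8 and 154.5 CPM in starch 3. Elsewhere it ran from 1.07 CPM in control 10 to 39.0 CPM in starch 11, with 26.3 CPM in starch 4, 25.2 CPM in control 4 and 19 CPM in control 3. CSF3R thus graded into the other piglets without a wide gap, starch 11 lying 1.36-fold below control 5. The median over control piglets was 6.75 CPM and over starch piglets 6.06 CPM, and the diets overlapped, although starch 3 lay above all control piglets. Control 7 (1.27 CPM) and control 10 lay below all starch piglets, but they and starch 6 (1.3 CPM) each had 9 counts.

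TREM1, an activating receptor of neutrophils and monocytes that amplifies inflammatory signalling, read 6.17 CPM in control 5, 27.4 CPM in control 8 and 56.1 CPM in starch 3. The other piglets held at most 1.94 CPM (starch 11), and 4 had no count. Its medians, 0.337 CPM (control) and 0.257 CPM (starch), were near the limit that a count of 0 allows.

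GPR84, a receptor for medium-chain fatty acids that is induced in activated myeloid cells, stood out by a single piglet. It read 558.0 CPM in starch 3, 88.7 CPM in control 8 and 34.6 CPM in control 5. The rest held at most 5.18 CPM (starch 11). Starch 3 alone held 4814 of the 6061 counts of this gene. The lowest, median and highest levels were 0.171, 0.644 and 88.7 CPM over the control piglets and 0.351, 1.27 and 558.0 CPM over the starch piglets. The diets overlapped between 0.351 and 88.7 CPM, and starch 3 lay above all control piglets.

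The proportions of the receptors differed among the same 3 piglets. GPR84 had 0.653 counts for each count of CSF3R in control 5 (exact 95% interval 0.569 to 0.750), 0.940 in control 8 (0.846 to 1.04) and 3.61 in starch 3 (3.40 to 3.84). In the 7 other piglets with at least 10 counts of both the proportion ran from 0.0756 to 0.542. Starch 3 thus stood above all others for this pair. TREM1 to CSF3R was 0.117 (0.0883 to 0.152) in control 5, 0.291 (0.249 to 0.339) in control 8 and 0.363 (0.327 to 0.403) in starch 3. S100A8 to CSF3R was 0.788 (0.706 to 0.880) in control 8, against 0.243 (0.199 to 0.295) in control 5 and 0.252 (0.223 to 0.284) in starch 3. Control 8 was thus richer in S100 messages relative to CSF3R, and starch 3 in GPR84. The intervals cover counting error only, within single libraries.

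**Figure D2:**
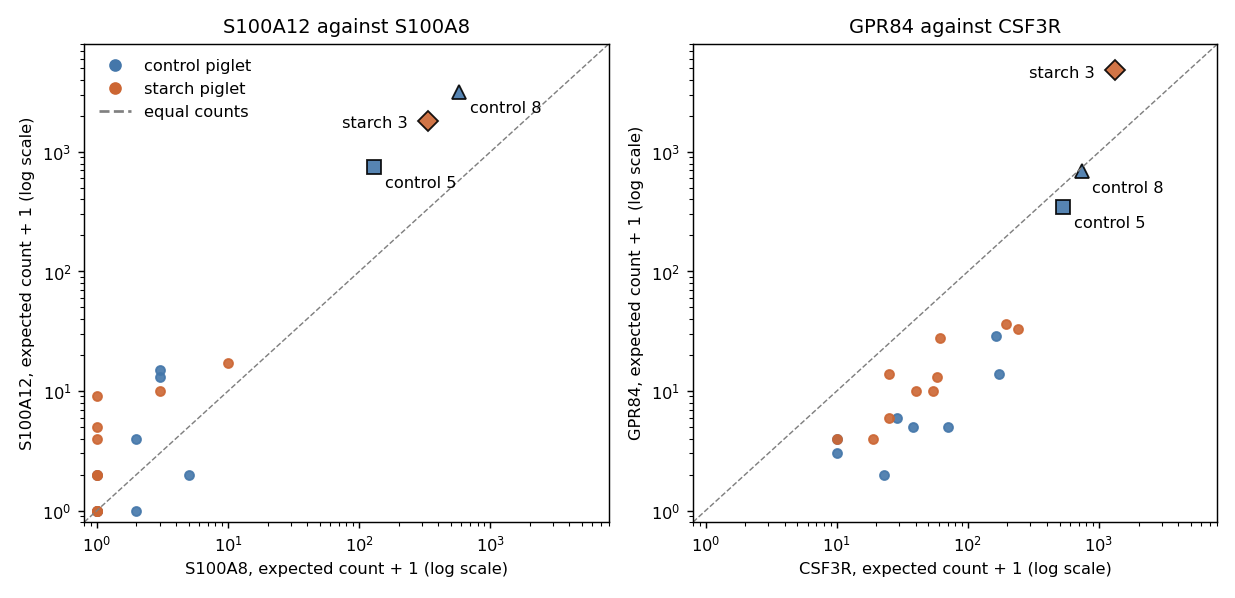
Expected counts plus 1 of S100A12 against S100A8 (left) and of GPR84 against CSF3R (right) on log axes, 1 point per piglet, with a dashed line at equal counts. In control 5, control 8 and starch 3 the S100 pair lies parallel to the line at 5.42 to 5.81 counts of S100A12 for each count of S100A8, while GPR84 rises from 0.653 to 3.61 counts for each count of CSF3R.

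ACOD1 encodes the mitochondrial enzyme that makes itaconate from cis-aconitate in activated macrophages. It read 32.4 CPM in control 5, 35.3 CPM in control 8 and 104.0 CPM in starch 3. Starch 4 followed with 17.4 CPM and control 3 with 13.2 CPM, while control 1 and control 10 had no count. Medians were close, 1.32 CPM (control) and 1.39 CPM (starch). ACOD1 and GPR84 differed in balance: ACOD1 had 0.937 counts for each count of GPR84 in control 5, 0.397 in control 8 and 0.186 in starch 3, against 4.07 in control 3, 3.69 in starch 4, 1.92 in control 4, 1.62 in starch 11 and 0.481 in starch 10. Outside the 3 piglets, only those with at least 10 counts of both genes are given. The value of starch 10 lay within the range of the 3 piglets. With fewer counts, ACOD1 was also below GPR84 in starch 7 (8 and 9 counts), starch 8 (9 and 13), starch 9 (9 and 12), control 1 (0 and 5) and control 10 (0 and 2). It was above GPR84 in starch 1 (17 and 9), starch 5 (22 and 3), starch 2 (6 and 5) and starch 6 (4 and 3). The same held in control 2 (12 and 4), control 9 (7 and 4) and control 6 (3 and 1), and control 7 had 3 counts of each.

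CXCL8, the chemokine that attracts neutrophils and that epithelial cells can also make, was the least contrasted. It was detected in every piglet, with at least 10 counts. Levels were 26.2 CPM in control 5, 17.1 CPM in control 8 and 60.3 CPM in starch 3, and control 9 (14.5 CPM) and control 3 (13 CPM) came close to control 8. Without control 5, control 8 and starch 3 the 8 control piglets ran from 1.56 to 14.5 CPM with a median of 3.19, and the 10 starch piglets from 3.08 to 10.1 CPM with a median of 5.22.

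Per coding length the order of the genes changed between piglets. In fragments per kilobase scaled to depth (FPKM, the authors' unit), CXCL8 was the highest of the 7 genes in 18 piglets, with a median of 17.9 FPKM and a range of 5.61 to 65.6 FPKM among them. S100A12 was the highest in the other 3, at 424.5 FPKM in control 5, 1777.8 FPKM in control 8 and 1026.7 FPKM in starch 3. The second gene differed among these 3 as well. It was CXCL8 in control 5 (129.4 FPKM), S100A8 in control 8 (336.6 FPKM) and GPR84 in starch 3 (520.7 FPKM).

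The comparison of diets addressed the effect of wheat starch in the replacer on intestinal expression. None of the 7 genes differed between the diets beyond the spread between piglets. In the edgeR quasi-likelihood test 0 of 13127 genes (0%) passed an adjusted p of 0.05, and 1.33% had an unadjusted p below 0.05. Only 4 of the 7 genes passed the filter on low counts (ACOD1, GPR84, CSF3R and CXCL8), and 0 of them had an unadjusted p below 0.05. All 4 had a log2 fold change above 0, as did 51.1% of the 13127 genes. S100A8, S100A12 and TREM1 are taken from the same test without the filter, where 0 of 18630 genes passed and 2.81% had an unadjusted p below 0.05. DESeq2 called 0 of 18630 genes as well, with 1.57% at an unadjusted p below 0.05, among them 1 of the 7 genes.

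GPR84 had the largest difference among the 4 filtered genes, a log2 fold change (starch minus control) of 2.00 (95% interval -0.86 to 4.86, edgeR adjusted p = 0.9998). Control piglets averaged 13.1 ± 28.6 CPM (SD, n = 10), and the starch mean was 52.5 ± 167.7 CPM (SD, n = 11), an SD above the mean for either diet. ACOD1 had a log2 fold change of 0.53 (-1.61 to 2.67), CSF3R 0.10 (-1.65 to 1.86) and CXCL8 0.18 (-1.02 to 1.39). The median of these 4 was 0.36, beside 0.004 over all 13127 genes. Without the filter, S100A8 had -1.24 (-4.0 to 1.52), S100A12 -1.30 (-4.38 to 1.79) and TREM1 0.62 (-1.81 to 3.06), each with an edgeR adjusted p of 0.9997. Each of the 7 intervals includes 0 and is wide, so these data do not show that the diets are alike.

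Single piglets set the sign. Starch 3 and control 8 are singled out here by their levels of these same genes. The signs, intervals and p-values without them are therefore a description and not a test of diet. Without starch 3, and with no filter, all 7 genes had a negative log2 fold change (48.8% of 18604 genes did), down to -6.38 for S100A12 (95% interval -9.64 to -3.13, unadjusted p = 0.000505, edgeR adjusted p = 1) and -2.72 for GPR84. S100A8, S100A12, TREM1 and GPR84 had an unadjusted p below 0.05 there (3.72% of genes), and 0 genes (0%) were called. Without control 8 all 7 were positive (53.2% of 18593 genes), up to 3.44 for GPR84 and 2.43 for TREM1, with S100A12 at 1.16, and GPR84 alone had an unadjusted p below 0.05 (2.80% of genes). Without control 5, control 8 and starch 3 the values lay between -0.15 (CXCL8) and 1.00 (GPR84, -0.20 to 2.20), and S100A12 was at 0.16. In DESeq2, which replaces outlying counts, S100A12 had -3.71 (unadjusted p = 0.00566, adjusted p = 0.9999) with the counts of 2 libraries replaced. GPR84 had -1.16 there, also with 2 replaced.

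**Figure D3:**
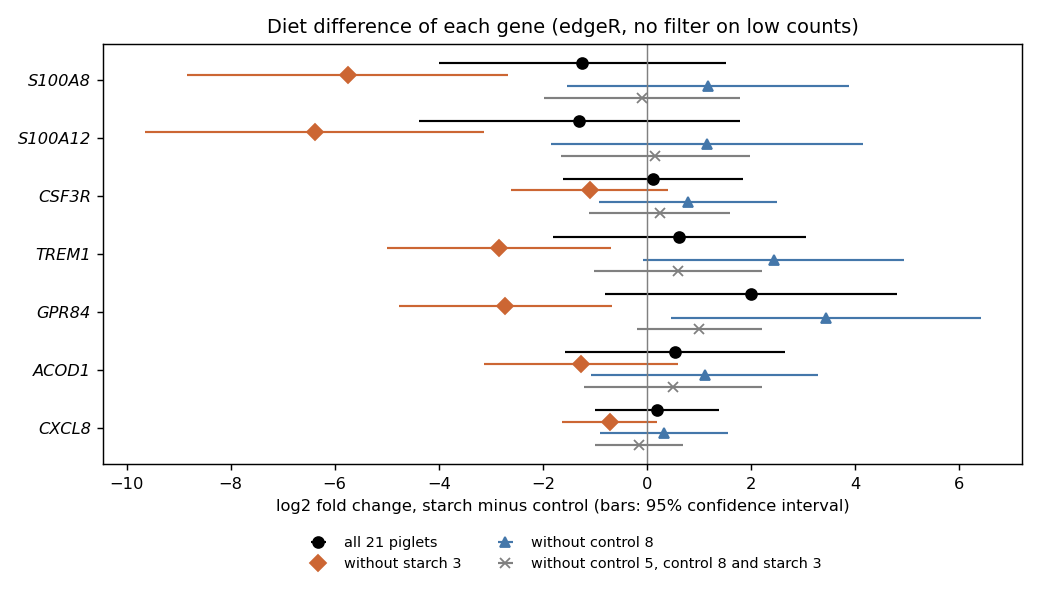
Log2 fold change, starch minus control, of each gene with its 95% confidence interval in edgeR fits with no filter on low counts: all 21 piglets, without starch 3, without control 8, and without control 5, control 8 and starch 3. All 7 values are negative without starch 3 and positive without control 8.

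Over the 21 piglets the levels of the genes rose and fell together. Spearman's rho of log2 CPM ran from 0.32 (GPR84 with TREM1) to 0.84 (GPR84 with CSF3R) over the 21 pairs of genes, with a median of 0.73. The points share libraries, and low counts tie many values of S100A8, S100A12 and TREM1. GPR84 and ACOD1 also had few counts in many piglets. GPR84 fell to 1 count in control 6, and ACOD1 to 0 in control 1 and control 10. Among the 18 piglets without control 5, control 8 and starch 3 the range over all pairs was -0.09 (GPR84 with TREM1) to 0.75, with a median of 0.55, and the 6 pairs of ACOD1, GPR84, CSF3R and CXCL8 had a rho of 0.52 to 0.75. Starch 4, starch 11, control 3 and control 4 were the next piglets in the mean level of these 4 genes. These correlations are given as a description.

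Outside the set, the tested genes whose levels followed the mean of those 4 genes most closely over the 21 piglets had a rho of 0.877 to 0.906, where the median over 13123 genes was 0.006. They were STX11, a syntaxin of cytotoxic and myeloid cells, the monocyte chemoattractant CCL2, the platelet-activating factor receptor PTAFR, the nucleotide receptor P2RY6, LPCAT1, PLEK, AIMP2, the myeloid Src-family kinase FGR, and 2 genes without a symbol, ENSSSCG00000013556 and ENSSSCG00000039500. CCL2, for example, read 29.7, 38.8 and 72.0 CPM in control 5, control 8 and starch 3, and at most 23.9 CPM elsewhere. In the 18 other piglets 8 of these 10 genes were among the 10 closest, but those piglets are part of the 21 that picked them. The 10 genes are the top of the ranking, so the median rho of 0.006 is no test of their values. With Pearson's correlation over all 21 piglets only 2 of the 10 were.

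Other genes of neutrophils were then read from lists of related genes. In the list of granule proteins and effector enzymes, 5 of the 14 genes found had control 5, control 8 and starch 3 as their 3 highest piglets. Among its 7 tested genes 2 did, beside 5.23% of all 13127 tested genes. MMP8, LTF and PADI4 did not pass the filter on low counts. MMP8, the neutrophil collagenase, had 322 counts, all of them in these 3 libraries (1.79, 5.26 and 30.5 CPM in control 5, control 8 and starch 3). LTF, the granule protein lactoferrin, read 2.39, 7.56 and 4.17 CPM, against at most 0.319 CPM elsewhere. PADI4, the enzyme that citrullinates histones in neutrophils, read 1.29, 7.18 and 7.42 CPM, against at most 0.146 CPM. Other genes of the list did not follow. MMP9 was highest in control 3 at 27.2 CPM, against 8.96, 9.74 and 9.74 CPM in control 5, control 8 and starch 3. MMP25 was highest in control 4 (4.1 CPM), and PGLYRP1 was higher in starch 4 (1.62 CPM) than in control 5 (1.19 CPM). All genes named in this paragraph were named after their values were seen. The same holds for the genes below that are not among the 4 most abundant of their list.

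The primary granule enzymes, which neutrophil precursors in bone marrow transcribe, had few counts in any piglet. MPO and PRTN3 had 3 counts each over all 21 piglets and ELANE had 25. MPO and PRTN3 had the same values in the same piglets, so shared reads cannot be told apart from coincidence. The oxidase subunit NCF4 was present in every piglet, at 12.7 CPM in the median of the 18 other piglets and at 56.0 CPM in starch 3. BPI and CYBA, the most abundant genes of the list, were highest in starch 11 (793.0 and 147.4 CPM). Between the diets 4 of the 7 tested genes of the list were higher and 3 lower on starch, 0 were called by edgeR, and the median log2 fold change was 0.05.

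Among genes of supply and recruitment, 3 of the 10 found had control 5, control 8 and starch 3 as their 3 highest piglets. Among the 8 tested genes 2 did, beside 5.23% of all 13127 tested genes. CSF3, the ligand of CSF3R, read 4.78, 4.36 and 7.88 CPM in control 5, control 8 and starch 3, against at most 1.03 CPM elsewhere. The neutrophil chemokine CXCL2 stood at 16.8, 15.9 and 94.5 CPM, with at most 7.90 CPM in the others. SELP, the endothelial selectin on which leukocytes roll, read 21.5, 23.2 and 20.3 CPM, and 5.80 CPM or less in the other piglets. The abundant leukocyte genes of the list separated the piglets less: the integrin chain ITGB2 read 102.2, 87.7 and 174.0 CPM, with 90.3 CPM in starch 4, and ITGAM 55.7, 34.9 and 58.4 CPM, with 46.5 CPM in control 4. CSF2RB, the shared beta chain of cytokine receptors, reached 113.0 CPM in starch 3. Of the 8 tested genes 5 were higher and 3 lower on starch (0 called, median log2 fold change 0.06).

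The interleukin-1 pathway was split. Of the 17 genes found, 3 had control 5, control 8 and starch 3 as their 3 highest piglets (IL1A, IL1R2 and IL1RAP). These 3 did not pass the filter on low counts. Of the 14 tested genes 0 had this order, beside 5.23% of all 13127 tested genes. IL1R1 and TRAF6 were highest in starch 5, IRAK4 in control 1 and SIGIRR in control 6. The ligand IL1A read 7.47, 4.62 and 27.7 CPM in control 5, control 8 and starch 3, the decoy receptor IL1R2 6.57, 25.9 and 14.8 CPM, and the co-receptor IL1RAP 7.07, 2.31 and 5.56 CPM. In the other piglets these genes reached at most 1.48, 2.97 and 2.16 CPM. Inflammasome genes were not alike. The sensor NLRP3 read 12.4, 8.33 and 16.5 CPM in control 5, control 8 and starch 3, against a median of 3.87 CPM and at most 9.51 CPM in the others. CASP1, the protease that matures interleukin-1 beta, read 53.6, 89.7 and 122.8 CPM, against at least 206.6 CPM in every other piglet, and the pore protein GSDMD 39.5, 56.9 and 68.0 CPM, against at least 75.3 CPM. The adapter PYCARD (10.1, 33.1 and 29.4 CPM) overlapped the others, which began at 20.5 CPM, and the kinase IRAK1 lay between 34.2 and 51.9 CPM except in control 8 (69.6 CPM). Between the diets 4 of 14 tested genes were higher and 10 lower on starch (0 called, median -0.04).

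TREM1 signals through the adapter TYROBP, which read 22.3, 38.8 and 42.7 CPM in control 5, control 8 and starch 3, against at most 22.2 CPM elsewhere. The related adapter FCER1G stood at 20.6, 42.9 and 54.6 CPM, with 24.3 CPM in starch 11. SYK and PLCG2, which B cells use as well, were highest in starch 10 (92.1 and 185.3 CPM). Of the 6 tested genes of this list 5 were higher and 1 lower on starch. The median log2 fold change was 0.29, 0 were called, and 1 had an unadjusted p below 0.05, PLCG2 with 0.49. Of all 13127 tested genes 1.33% had such a p.

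Among genes of the early NF-kappa-B response, 4 of the 16 found had control 5, control 8 and starch 3 as their 3 highest piglets, namely TNFAIP6, SOCS3, CCL3L1 and CCL2. Among the 12 tested genes 3 did, beside 5.23% of all 13127 tested genes. Starch 3 was the highest piglet for NFKBIA, the inhibitor that NF-kappa-B itself induces (315.1 CPM, median of all piglets 91.4), and the manganese superoxide dismutase SOD2 (88.0 CPM, median 46.9). TNFAIP6 read 21.8, 24.7 and 75.7 CPM in control 5, control 8 and starch 3 (at most 9.31 elsewhere), SOCS3 21.7, 22.1 and 49.5 CPM (at most 15), and CCL3L1 3.49, 10.8 and 28.9 CPM (at most 1.46). IRF1 was highest in starch 4 (317.3 CPM) and BCL3 in control 6 (77.8 CPM). Of the 12 tested genes 9 were higher and 3 lower on starch (0 called, median 0.16).

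Among other S100 genes, S100A6, S100A10 and S100A11 were highest in control 8, at 264.2, 389.6 and 210.9 CPM against medians of 29.4, 174.2 and 26.0 CPM. S100G, the calcium-binding protein of absorptive cells, was low in the same 3 libraries, at 17.5, 6.28 and 8.00 CPM in control 5, control 8 and starch 3, against at least 122.8 CPM elsewhere. TLR4, through which calprotectin can signal, read 40.4, 27.9 and 65.3 CPM, against at most 17.8 CPM. Of the 8 tested genes of the list 2 were higher and 6 lower on starch (0 called, median -0.13).

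Among markers of other cells, the macrophage markers had their highest sums in control 5, control 8 and starch 3. All 12 macrophage markers were tested, and 5 had control 5, control 8 and starch 3 as their 3 highest piglets. Of all 13127 tested genes 5.23% did. Their summed level was 2493.0, 2543.4 and 3486.0 CPM in these libraries and 378.8 to 1599.8 CPM in the other 18. CD163, the haemoglobin scavenger receptor, read 724.0, 813.4 and 1027.3 CPM, against at most 238.7 CPM. CD14, the co-receptor for bacterial lipopolysaccharide, read 50.8, 64.2 and 89.1 CPM, against at most 17.1 CPM, and MARCO 14.2, 57.8 and 18.8 CPM, against at most 10.9 CPM. C1QA, C1QB and C1QC were highest in starch 3 (444.8, 666.0 and 481.8 CPM). Starch 11 exceeded control 5 and control 8 for C1QA (284.5 against 274.2 and 273.1 CPM) and CD68 (181.3 against 148.7 and 168.1 CPM). AIF1 was highest in starch 11 (48.4 CPM). The sum ran from 378.8 to 2543.4 CPM over control and from 429.9 to 3486.0 CPM over starch piglets. Between the diets 4 of 12 were higher and 8 lower on starch (0 called, median -0.09). The part of macrophages in the levels of the 7 genes was not tested.

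Markers of the absorptive epithelium were not alike. ANPEP, a brush-border peptidase, read 66.5, 50.5 and 100.7 CPM in control 5, control 8 and starch 3, against at least 2837.3 CPM in every other piglet. VIL1 (161.9, 180.8 and 171.3 CPM, at least 724.0 elsewhere), APOA4 (16.4, 1.41 and 0.696 CPM, at least 211.1) and FABP2 (7.77, 15 and 2.67 CPM, at least 132.7) did likewise. The general epithelial marker EPCAM was at 360.9, 696.8 and 480.8 CPM, with 473.0 to 1183.8 CPM in the others. CDH1 (833.9, 613.7 and 555.9 CPM, median of the others 448.5) and KRT20 (644.6, 702.9 and 799.1 CPM, median of the others 585.1) were above the median of the others in all 3 libraries. The sum of the 8 enterocyte markers found ran from 2128.3 to 23870.8 CPM (control) and from 2128.3 to 15425.0 CPM (starch), 3 tested markers were higher and 5 lower on starch, and 0 were called (median -0.06).

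The 5 smooth muscle markers summed to 19851.7, 36188.3 and 22491.0 CPM in control 5, control 8 and starch 3 and to 5433.0 to 19988.4 CPM in the others, with ACTG2, DES and TAGLN highest in control 8. By diet the sum ran from 7613.9 to 36188.3 CPM (control) and from 5433.0 to 22491.0 CPM (starch). The part of epithelium and muscle in the levels of the 7 genes was not tested.

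Summed markers of other blood and immune cells overlapped. Red blood cell markers summed to 75.8, 126.9 and 170.3 CPM in control 5, control 8 and starch 3, within the 51.9 to 343.2 CPM of the other 18. Eosinophil, basophil and mast cell markers summed to 55.5, 44.2 and 66.8 CPM, within 21.3 to 86.2 CPM, with 6 counts of the eosinophil peroxidase EPX in all. T-cell markers (78.7, 94.6 and 195.9 CPM, others 36.0 to 273.0) and B-cell markers (1.99, 10.0 and 6.38 CPM, others 1.05 to 330.2) also overlapped. None of these markers was called between the diets by edgeR, and CD79A (log2 fold change 1.80) was the 1 marker with an unadjusted p below 0.05. Of all 13127 tested genes 1.33% had such a p. CD79A reached 73.7 CPM in starch 10, while its medians were 2.3 CPM (control) and 2.6 CPM (starch).

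**Figure D4:**
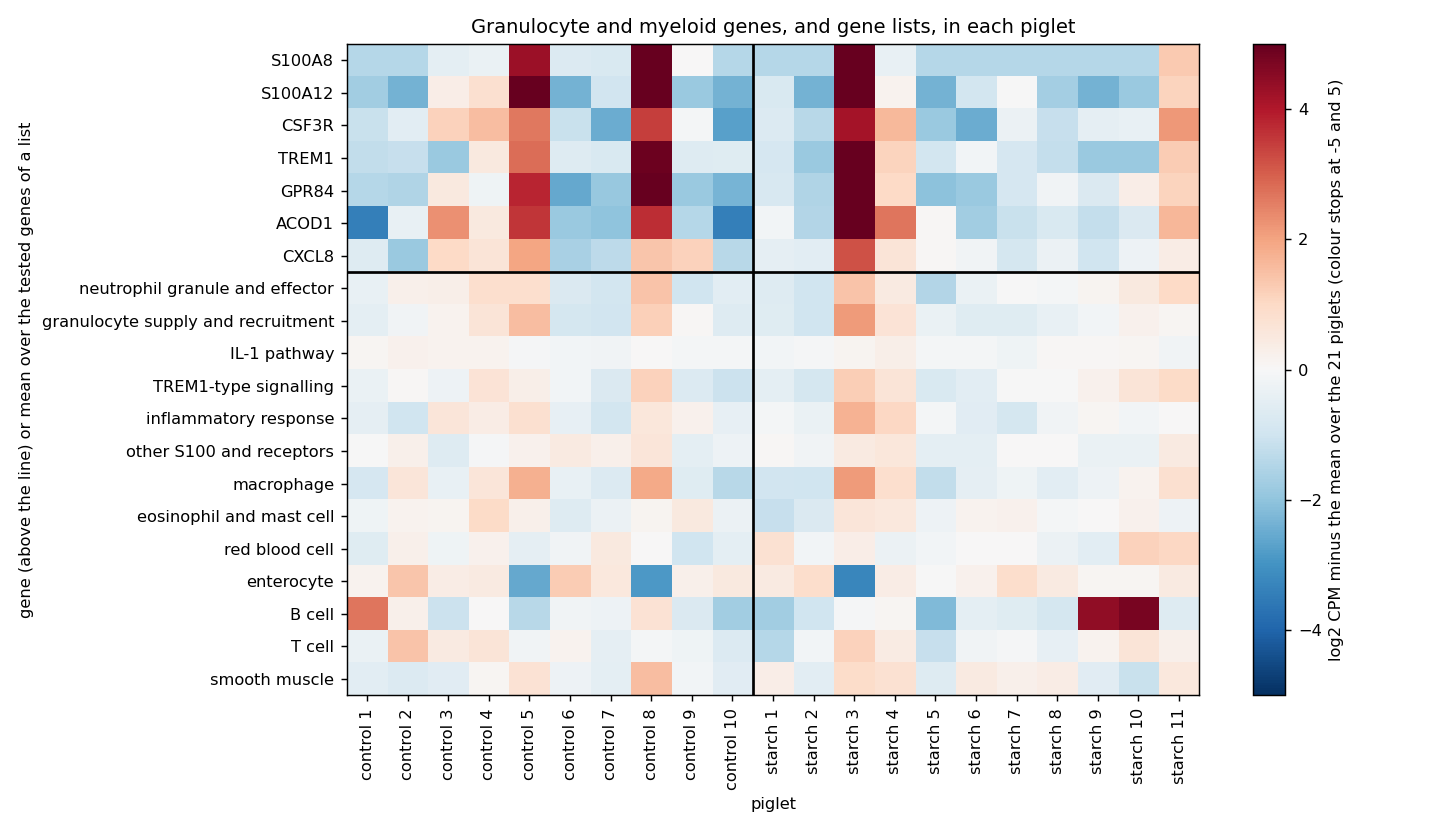
Log2 CPM of each of the 7 genes (above the line) and mean of the tested genes of 13 lists (below it) in each piglet, as the difference from the mean over the 21 piglets, with control piglets left and starch piglets right. Control 5, control 8 and starch 3 are high for the 7 genes and for macrophage markers and low for enterocyte markers.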

How the data were processed

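The authors deposited 1 table per piglet. Per the file headers it gives each Ensembl pig transcript its length, its expected count (estimated by the authors, not normalised) and its FPKM, scaled by the authors. HISAT and DESeq2 are named in the submitters' processing notes, with no version or role. The counting program and the genome build are, for these files, not given in the sources used here. A transcript absent from a piglet's table was taken as 0. Between 99.96 and 99.97% of lengths were multiples of 3, so they are coding lengths. Where genes are near-identical, the authors' estimate splits their reads, and values of such genes are uncertain.

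Gene values are sums of the expected counts of all transcripts, rounded, for 18661 genes, of which 14276 (76.5%) matched a symbol. CPM was computed with TMM scaling. Diet was tested over all 21 piglets with edgeR 4.0.16 in R 4.3.3 (quasi-likelihood F test, filterByExpr with minimum count 10 and minimum total 15, diet as the only term, Benjamini-Hochberg over all tested genes, threshold 0.05). Each library came from a separate piglet, per the labels. Genes removed by the filter were read from the same test without it. Alternatives were RLE and upper-quartile scaling, no filter, a minimum mean of 1 CPM, DESeq2 1.42.0, voom with quality weights (limma 3.58.1), limma on log2 of FPKM plus 0.5, 0.1 or 1, the replicate number as a block, and leaving out each piglet or 3 piglets. The edgeR test with the filter was checked on simulated counts, with the same dispersion for all genes and no piglets standing apart. Per-piglet counts set the counting error, and intervals of count ratios are exact binomial. No genome or sequence table was used, and no coordinates are given.

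The 7 genes and the 13 gene lists were chosen with earlier results of these data known. Named are the 7 genes, up to 4 genes of each list with the highest mean CPM, any called by the test, and the 10 tested genes outside the set with the highest Spearman correlation with the mean centred log2 CPM (prior count 2) of the 4 tested genes. Of the genes this rule names, 3 are not reported here. Plots were drawn with matplotlib 3.10.9.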

Additional observations from a re-analysis of the deposited data

Results flagged for a closer look

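In the 10 control piglets, 1 piglet lay far from the other 9 for 36 of 85 genes examined (Dixon's test, 95% critical value). Chance gives about 1 in 20 groups only for normally distributed values of genes chosen without regard to those values. The test was applied to unlogged CPM, and the genes share libraries. The share over all tested genes was not determined, so 36 of 85 has no background here. The 85 genes were chosen in part with their values known, so the count is a description. Control 8 was the piglet apart for 23 of the 36 genes. Of the set these were S100A12 (409.2 CPM), GPR84 (88.7 CPM), S100A8 (74.4 CPM) and TREM1 (27.4 CPM). Granule genes were LTF (7.56 CPM), PADI4 (7.18 CPM), MMP8 (5.26 CPM), MPO and PRTN3 (0.256 CPM each, which is under the limit that a count of 0 allows, with the same values in the same piglets). Receptors and signalling genes were IL1R2 (25.9 CPM), IRAK1 (69.6 CPM), FCER1G (42.9 CPM), TYROBP (38.8 CPM), CCL3L1 (10.8 CPM) and the macrophage receptor MARCO (57.8 CPM). S100A10 (389.6 CPM), S100A6 (264.2 CPM) and S100A11 (210.9 CPM) belonged to them too, as did the muscle genes ACTG2 (21372.6 CPM), DES (4116.6 CPM) and TAGLN (2828.1 CPM). ENSSSCG00000039500 (76.2 CPM) and AIMP2 (38.8 CPM) complete those of control 8.

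Control 5 stood apart for CCR3 (8.86 CPM) and IL1RAP (7.07 CPM). The other 11 genes belonged to piglets in which the 7 genes were not at their highest. In control 2 they were CASP1 (730.0 CPM), FABP2 (4297.8 CPM), CD2 (123.1 CPM), CD3E (76.6 CPM) and CD5 (43.5 CPM). In control 1 they were the B-cell genes CD79B (23.5 CPM), CD79A (14.7 CPM) and PAX5 (10.5 CPM). Single genes were IRF1 in control 3 (301.2 CPM), FCER1A in control 4 (37.6 CPM) and APOA4 in control 6 (4668.0 CPM).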

How the results depend on the processing

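The number of genes called between the diets was 0 under every alternative run, and 0 of the 7 genes were called. The direction of the single genes was not stable. With each piglet left out in turn, the log2 fold change ran from -1.30 to 1.10 for ACOD1, from -1.12 to 0.78 for CSF3R, from -5.75 to 1.17 for S100A8, from -6.38 to 1.16 for S100A12, from -0.74 to 0.51 for CXCL8 and from -2.84 to 2.43 for TREM1. The lowest value came without starch 3 in each, and the highest without control 8, or without control 5 for CXCL8. GPR84 ran from 1.82 to 3.43 in the 15 such fits where it passed the filter and fell to -2.72 without starch 3 and with no filter, an alternative chosen after seeing the data. DESeq2 gave -1.28 for ACOD1, -1.16 for GPR84 and -0.90 for TREM1. Voom gave -0.20 for CSF3R, -0.14 for CXCL8 and -0.19 for TREM1. Limma on log2 FPKM plus 0.5, 0.1 and 1 gave -0.20, -0.19 and -0.19 for CSF3R and -0.26, -0.52 and -0.18 for TREM1. Without control 5, control 8 and starch 3, S100A12 was at 0.16 and CXCL8 at -0.15. With the replicate block CSF3R was at -0.22 and TREM1 at -1.05, and 0 genes were called. Whether the numbers pair the piglets is not given in the labels. Of 10 same-numbered pairs 4 correlated above 0.1 (r from -0.337 to 0.485), and 0 of 10 correlated best with its own number. Numbers 3, 5 and 8, which include starch 3, control 5 and control 8, had the lowest r (-0.288, -0.283 and -0.337). These correlations cannot show that pairing is absent. The genes most like the set shared 2 of 10 with the list by Pearson's correlation. The cause of these changes was not tested. GPR84 could not be fitted with the filter under the block, without the 3 piglets and in 6 fits that left out a piglet. Outside the 3 piglets S100A8, S100A12 and TREM1 had few counts, and their intervals there were wide (-1.98 to 1.78, -1.66 to 1.98 and -1.01 to 2.20).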
